A study of Mus musculus with 18 samples.

Results

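The miR-30 family comprises 5 mature 5p miRNAs, mmu-miR-30a-5p, mmu-miR-30b-5p, mmu-miR-30c-5p, mmu-miR-30d-5p and mmu-miR-30e-5p (mmu- for mouse, left out below), which were chosen by name from the 459 miRNAs measured. All 5 were present in every library and passed the filter on low values. They were measured by HEAP. In this assay Argonaute 2 (Ago2), the protein that holds a miRNA on its target, bears a Halo tag, and UV light fixes it to its RNA before it is pulled down and the RNA is sequenced. The tissue was distal colon, scraped to enrich for epithelium, of 8 to 12 week old C57BL/6 mice. The G12D group carried Halo-Ago2/+, Fabp-Cre/+ and K-Ras-G12D/+, which is 1 oncogenic K-Ras allele, and the WT group carried Halo-Ago2/+ and Fabp-Cre/+ with wild-type K-Ras. Cre was driven by a Fabp promoter, which is active in intestinal epithelium, so other cells of the scrape need not carry the recombined alleles. There were 3 miRNA libraries and 3 pulldown mRNA libraries per genotype. Whether the libraries stem from separate mice is not labelled, and p-values therefore measure only the spread between these libraries.

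A miRNA guides Ago2 to messenger RNAs chiefly through its seed, bases 2 to 8 from its 5′ end, and the bound transcript is then repressed or degraded. Members of a family share the seed and can therefore bind the same sites, while their 3′ parts differ. The miR-30 family is widely expressed in epithelia and is known for restraining genes of epithelial-mesenchymal transition and autophagy, among them Snai1 and Becn1.

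The sequences are shown to make plain what the members share and how little separates some of them. Capitals mark the seed, and the sequences are those of RefSeq on GRCm38.p6, which matched 3 of the 5 members.
miR-30a-5p: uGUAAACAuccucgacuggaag
miR-30e-5p: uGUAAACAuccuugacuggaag
miR-30c-5p: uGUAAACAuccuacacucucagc
All 3 carried the seed GUAAACA and were identical over their first 12 bases. miR-30a-5p and miR-30e-5p differed by a single substitution, C13U, counted from the 5′ end with the base of miR-30a-5p first. miR-30c-5p differed from each of them at 5 of 22 aligned positions. Because 1 base separates miR-30a-5p from miR-30e-5p, a read with an error at that base can be counted for the wrong member, and how such reads were counted is not stated in the labels or the files. These 3 are 22 or 23 bases long. Levels were compared between members as reads, with no correction for length, and whether members are captured and sequenced equally well was not tested.

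The 6 hairpins lie in 3 pairs in the mouse genome (GRCm38). Mir30a (chromosome 1, 23272269 to 23272339) and Mir30c-2 (23291701 to 23291784) are 19361 bases apart and lie within no other RefSeq gene. Mir30b (chromosome 15, 68337415 to 68337510) and Mir30d (68341208 to 68341289) are 3697 bases apart, also outside any other gene. Mir30c-1 (chromosome 4, 120769534 to 120769622) and Mir30e (120772606 to 120772697) are 2983 bases apart within the span of Nfyc, which encodes a subunit of the transcription factor NF-Y, and Mir30e overlaps the annotated Mir30f. miR-30c-5p is made from both Mir30c-1 and Mir30c-2, so its reads cannot be assigned to one hairpin.

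The miRNA libraries held 337788 to 433245 reads in G12D and 437439 to 535932 reads in WT. The 9 epithelial marker miRNAs, such as miR-200c-3p and miR-194-5p, made up 27.5 to 29.2% of the reads in G12D and 25.7 to 30.9% in WT. Of the smooth muscle and stromal markers 5 of 7 listed were analysed here, at 0.0252 to 0.0457% in G12D and 0.0369 to 0.0864% in WT. Of the blood cell and endothelial markers 6 of 8 were analysed here, at 0.189 to 0.223% in G12D and 0.157 to 0.222% in WT. Of the markers that passed the filter, a mean of 10 normalized reads, limma called at an adjusted p under 0.05 3 of 9 epithelial ones higher in G12D, and 0 of 3 stromal and 0 of 4 blood cell and endothelial ones in either direction. Over all tested miRNAs it called 9.06% higher and 6.69% lower. Their part in the results below was not tested. In tissue of mixed cells, fewer cells of a type and less RNA per cell cannot be told apart, and a pulldown does not separate how much of a miRNA is made from how much is loaded into Ago2.

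miR-30 was a major cargo of Ago2 in both genotypes. Its 5 members together took 9.87, 9.60 and 12.1% of all miRNA reads in the G12D libraries and 10.1, 12.2 and 9.43% in the WT libraries. The Wilson 95% interval, which covers counting error only, was 9.77 to 9.97% for G12D replicate 1 and 12.1 to 12.3% for WT replicate 2, and those of the other libraries were as narrow. The 459 miRNAs were grouped by seed, of which 408 had a RefSeq sequence. miR-30b-5p and miR-30d-5p had none and were grouped with miR-30 by name, whereas the rest without a sequence stood alone. Other groups may therefore lack members that belong to them. The miR-30 group ranked second by mean normalized reads. Only the group of miR-200c-3p stood above it, with 52246 against 45267 normalized reads. miR-30 ranked second in all libraries except WT replicate 2, where it ranked first. None of the other miRNAs with a RefSeq sequence had its seed.

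The family total gave different answers on the 2 scales. In normalized reads, the deposited values in which each library's reads are divided by 1 factor, the total was 45666, 49655 and 57028 in the G12D libraries. It was 41799, 44578 and 32876 in the WT libraries. All 3 G12D libraries lay above all 3 WT libraries, though the nearest of them were close. The means were 50783 ± 5764 in G12D and 39751 ± 6114 in WT (SD, n = 3 each; 1.28-fold, exact two-sided permutation p = 0.1, the smallest that 3 against 3 can give). As a share of all miRNA reads, the family took 10.5% ± 1.39 in G12D and 10.6% ± 1.46 in WT (SD, n = 3 each; exact permutation p = 0.9), and the groups overlapped. The normalized reads of all miRNAs summed to 462531 to 517334 in G12D and 348678 to 414529 in WT on the deposited scale.

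**Figure D1:**
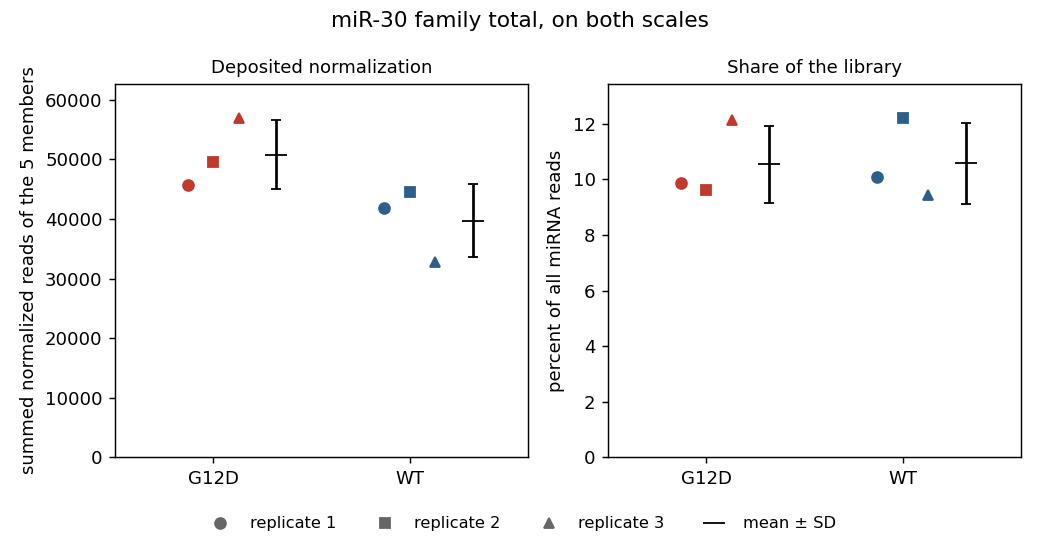
Summed normalized reads of the 5 miR-30 members (left) and their percent of all miRNA reads (right) in the 3 G12D and 3 WT libraries, with points for libraries and bars for mean ± SD. The G12D points lie above the WT points on the left, at means of 50783 and 39751, and among them on the right, at 10.5 and 10.6%.

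The members fell into an abundant trio and a less abundant pair. miR-30e-5p ranked 5th of the 459 miRNAs by mean, miR-30a-5p 10th, miR-30d-5p 12th, miR-30b-5p 37th and miR-30c-5p 40th. miR-30e-5p exceeded miR-30a-5p within each of the 6 libraries, by 1.24-fold (geometric mean; log2 ratio 0.31 ± 0.07 SD, n = 6). miR-30a-5p exceeded miR-30d-5p in all 6, by 1.27-fold (0.34 ± 0.19), and miR-30d-5p exceeded miR-30b-5p in all 6, by 3.46-fold (1.79 ± 0.35). Each of these 3 steps had an exact two-sided sign-flip permutation p of 0.03125, the smallest possible with 6 libraries. With Benjamini-Hochberg adjustment over the 4 pairs of neighbours it was 0.0417. The pairs followed the order of the means in these same 6 libraries, and the p-values do not allow for that choice. miR-30b-5p and miR-30c-5p could not be ordered over all 6 libraries (log2 ratio 0.07 ± 0.30, exact permutation p = 0.562).

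miR-30b-5p was the 1 member called higher in G12D on the deposited scale. It had 4252, 3562 and 3840.0 normalized reads in the G12D libraries, against 2084, 2379 and 2139.9 in the WT libraries. The genotypes were well separated, with every G12D library far above every WT library. The means were 3884 ± 347 in G12D and 2201 ± 156 in WT (SD, n = 3 each; 1.77-fold). limma on log2(normalized reads + 1), fitted across all 254 miRNAs that passed the filter, gave a log2 fold change of 0.82 ± 0.23 SE (adjusted p = 0.0108). In that fit 15.7% of the miRNAs were called in either direction and 9.06% were called higher and 6.69% lower, so 1 call among 5 members is close to the background. The authors' deposited table gives miR-30b-5p a log2 fold change of 0.78 ± 0.21 SE with an adjusted p of 0.00735. Among the alternatives, the call ended when each library was scaled to the same total (0.45, limma adjusted p = 0.157), without the variance trend (limma adjusted p = 0.0707) and without G12D replicate 1 (0.75, limma adjusted p = 0.0671).

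miR-30d-5p, the neighbour of miR-30b-5p on chromosome 15, came next and did not pass. It had 9359, 12375 and 14841 normalized reads in the G12D libraries and 8176, 10596 and 7109 in the WT libraries. The genotypes overlapped, since WT replicate 2 exceeded G12D replicate 1. Its log2 fold change was 0.49 ± 0.20 SE (limma adjusted p = 0.0737). This rested on single libraries: it passed without WT replicate 2 (0.65, limma adjusted p = 0.0175) and without G12D replicate 1 (0.67, limma adjusted p = 0.044), and with quantile normalization it was 0.0021.

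miR-30c-5p had 3507, 2890.2 and 3157 normalized reads in the G12D libraries and 2898, 2255 and 2174 in the WT libraries. Its highest WT library lay just above its lowest G12D library, and its log2 fold change was 0.39 ± 0.23 SE (limma adjusted p = 0.269).

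The 2 most abundant members had the smallest fold changes. miR-30e-5p had 16429, 16733 and 18985 normalized reads in the G12D libraries and 15878, 16275 and 11846 in the WT libraries. WT replicate 3 was the low one, and the other WT libraries came close to the lowest G12D library, so the groups were separate by a narrow gap. miR-30a-5p had 12119.6, 14095 and 16205 normalized reads in the G12D libraries and 12763, 13073 and 9607 in the WT libraries, with overlapping groups. The log2 fold changes were 0.26 ± 0.18 SE for miR-30e-5p and 0.26 ± 0.19 SE for miR-30a-5p, and neither passed (limma adjusted p = 0.357 and 0.363). Libraries of the genotypes did not overlap for miR-30b-5p and miR-30e-5p, an arrangement that 29.5% of the 254 tested miRNAs showed.

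**Figure D2:**
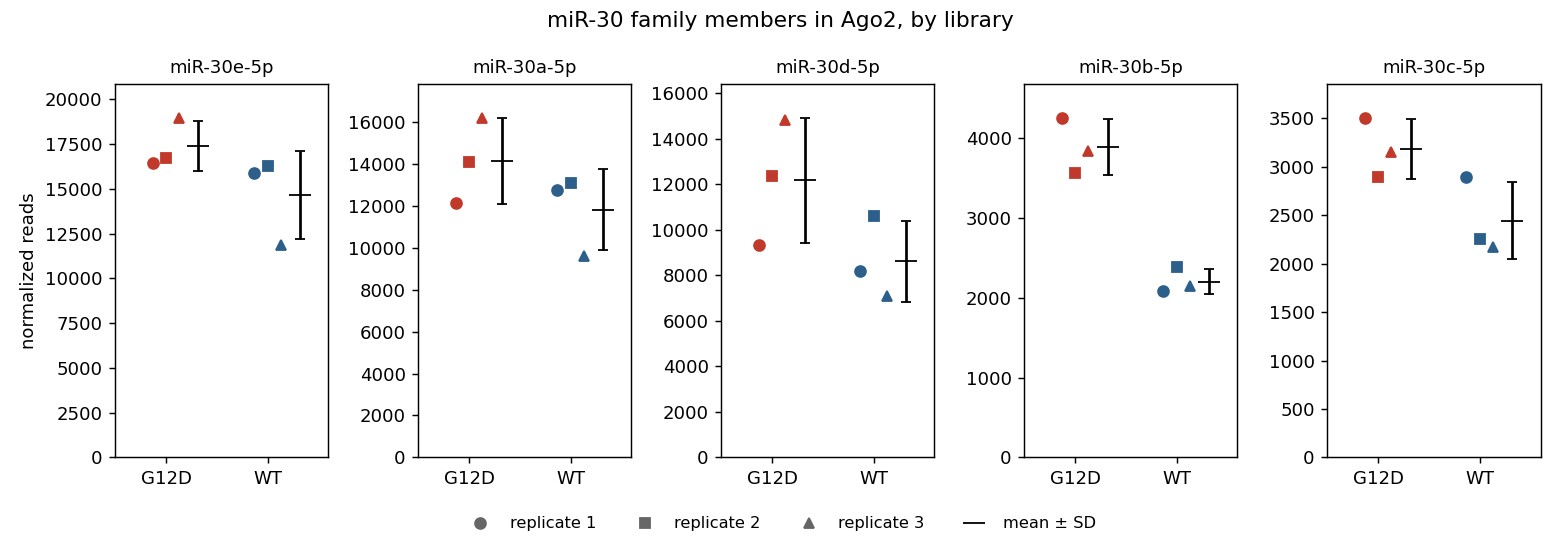
Normalized reads (linear axes that start at 0) of each miR-30 member in the 3 G12D libraries (left of each panel) and 3 WT libraries (right), with bars for mean ± SD. miR-30b-5p is clearly separated, at 3884 and 2201, while the other members overlap or nearly touch.

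All 5 members had a log2 fold change above 0 on the deposited scale, as did 55.1% of the tested miRNAs. Their median was 0.39, against 0.11 over all 254 tested miRNAs. The sign of the most abundant members turned with the scaling. With the same total per library the all-miRNA median was -0.26, and miR-30e-5p and miR-30a-5p stood at -0.11 and -0.10 (limma adjusted p = 0.639 and 0.676). With quantile normalization they stood at -0.21 and -0.059, around an all-miRNA median of 0.01. Calls over all miRNAs were split 23 higher and 17 lower on the deposited scale, 6 and 31 with the same total, 20 and 22 with quantile normalization, 11 and 26 by edgeR with TMM and 17 and 17 by DESeq2. miR-30b-5p was the member with the largest log2 fold change under each of these scalings, from 0.45 to 0.82, and passed under all of them except the same total.

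**Figure D3:**
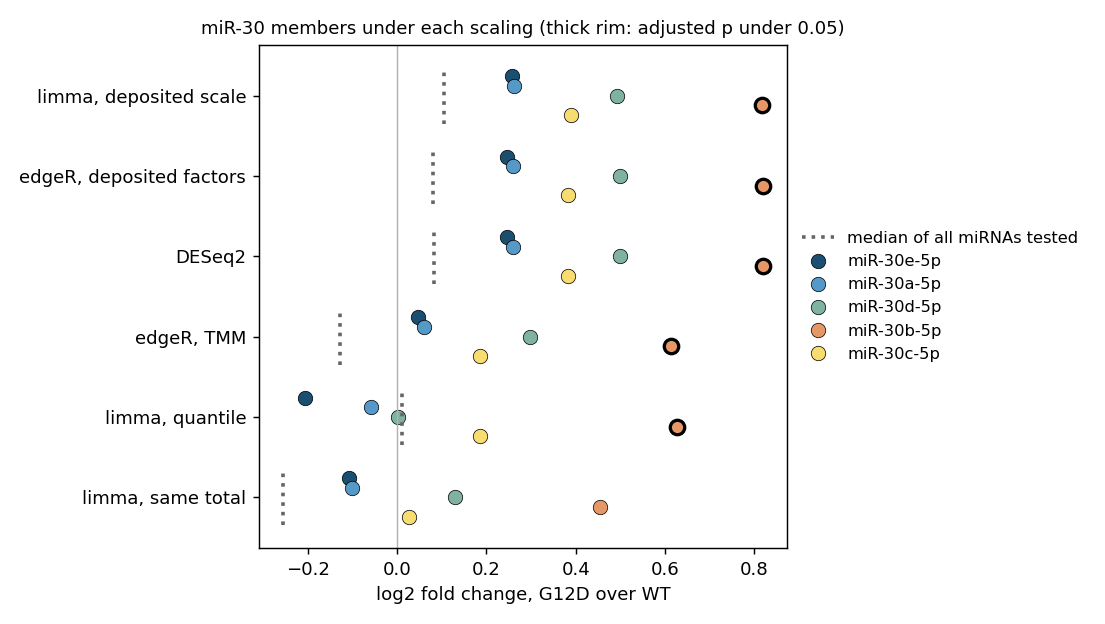
log2 fold change of G12D over WT for each miR-30 member (points, with a thick rim where the adjusted p is under 0.05) under 6 combinations of tool and scaling, with the median of all tested miRNAs as a dotted line. miR-30b-5p stands farthest to the right in every row, and miR-30e-5p and miR-30a-5p lie left of 0 in the rows for quantile normalization and the same total.

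Shares within the family do not depend on the scaling of a library. miR-30b-5p made up 9.31, 7.17 and 6.73% of the miR-30 reads in the G12D libraries and 4.99, 5.34 and 6.51% in the WT libraries. The groups were separate, though G12D replicate 3 and WT replicate 3 were close. miR-30e-5p made up 36.0, 33.7 and 33.3% in the G12D libraries and 38.0, 36.5 and 36.0% in the WT libraries, and miR-30a-5p 26.5, 28.4 and 28.4% in the G12D libraries and 30.5, 29.3 and 29.2% in the WT libraries. For both of these the G12D libraries lay below the WT libraries, with a difference of -2.52 percentage points for miR-30e-5p (34.3% ± 1.45 in G12D and 36.8% ± 1.02 in WT) and -1.91 for miR-30a-5p (27.8% ± 1.07 in G12D and 29.7% ± 0.729 in WT). The gap was narrow for miR-30e-5p, at 35.98% in G12D replicate 1 and 36.03% in WT replicate 3, and it closed when the 3p arms were counted in the family total (exact permutation p = 0.2). The mean share of miR-30b-5p was 7.74% ± 1.38 in G12D and 5.61% ± 0.798 in WT (SD, n = 3 each), 2.13 points apart, or 1.34 points without G12D replicate 1. Each of these 3 differences reached the smallest possible exact permutation p of 0.1, or 0.167 with Benjamini-Hochberg adjustment over the 5 members, so none could pass. Shares add up to 100% and are not independent of each other.

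miR-30d-5p held 20.5 to 26.0% of the family in G12D and 19.6 to 23.8% in WT (exact permutation p = 0.3). miR-30c-5p held 5.54 to 7.68% in G12D and 5.06 to 6.93% in WT (exact permutation p = 1.0). Both overlapped between the genotypes. As a share of all miRNA reads only miR-30b-5p was separate, at 0.688 to 0.919% in G12D and 0.503 to 0.652% in WT (exact permutation p = 0.1, or 0.5 with Benjamini-Hochberg adjustment over the 5 members). Non-overlap on this scale was found in 34.3% of the 254 tested miRNAs.

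**Figure D4:**
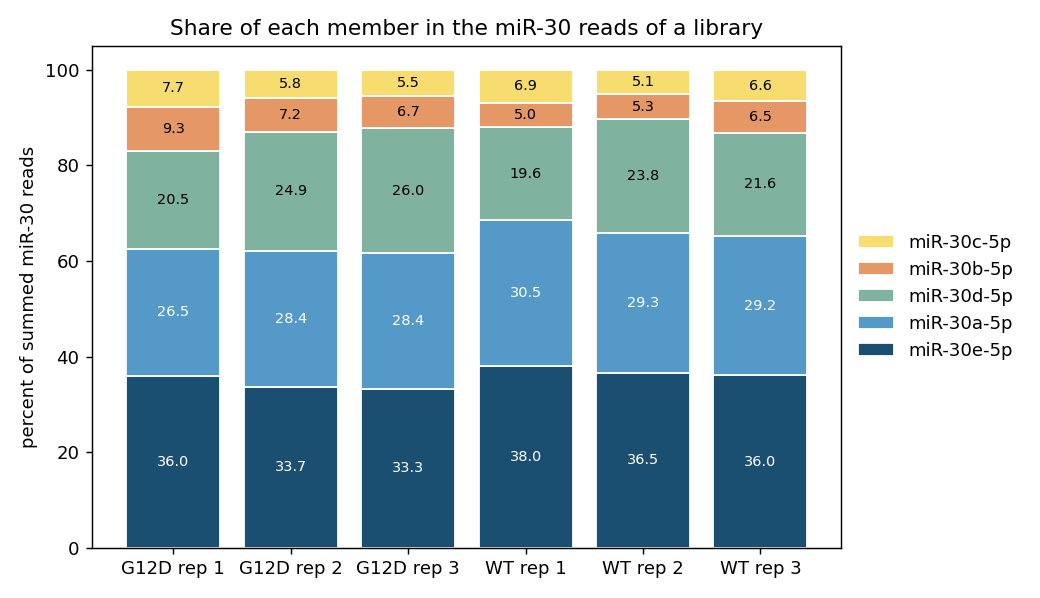
Percent of the summed miR-30 reads taken by each member, stacked to 100%, in the 3 G12D libraries and then the 3 WT libraries, with the percent printed in each segment. The segment of miR-30b-5p spans 6.73 to 9.31% in G12D and 4.99 to 6.51% in WT, and that of miR-30e-5p is the largest in each library.

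Ratios between members, taken within a library, were compared for all 10 pairs. The closest pair in level, miR-30b-5p over miR-30c-5p, stood at 1.21, 1.23 and 1.22 in the G12D libraries and at 0.719, 1.05 and 0.984 in the WT libraries. The ratio was nearly the same in the 3 G12D libraries and varied among the WT libraries, of which replicate 1 was the lowest. The means were 1.22 ± 0.0106 in G12D and 0.919 ± 0.177 in WT (SD, n = 3 each; exact permutation p = 0.1, or 0.333 adjusted over the 10 pairs). miR-30b-5p over miR-30e-5p was likewise separate, at 0.225 ± 0.0301 in G12D and 0.153 ± 0.0253 in WT, as was miR-30b-5p over miR-30a-5p, at 0.28 ± 0.0617 in G12D and 0.189 ± 0.0304 in WT (SD, n = 3 each; exact permutation p = 0.1, or 0.333 adjusted, for both).

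The neighbours miR-30b-5p and miR-30d-5p did not keep a fixed ratio. It was 0.454, 0.288 and 0.259 in the G12D libraries and 0.255, 0.224 and 0.301 in the WT libraries, so G12D replicate 1 was high and the genotypes overlapped (exact permutation p = 0.4). miR-30a-5p over miR-30e-5p, which differ by 1 base and come from different chromosomes, was 0.738, 0.842 and 0.854 in the G12D libraries and 0.804, 0.803 and 0.811 in the WT libraries. The WT ratios were nearly equal and the G12D ratios lay on both sides of them (exact permutation p = 1.0). All other pairs overlapped.

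**Figure D5:**
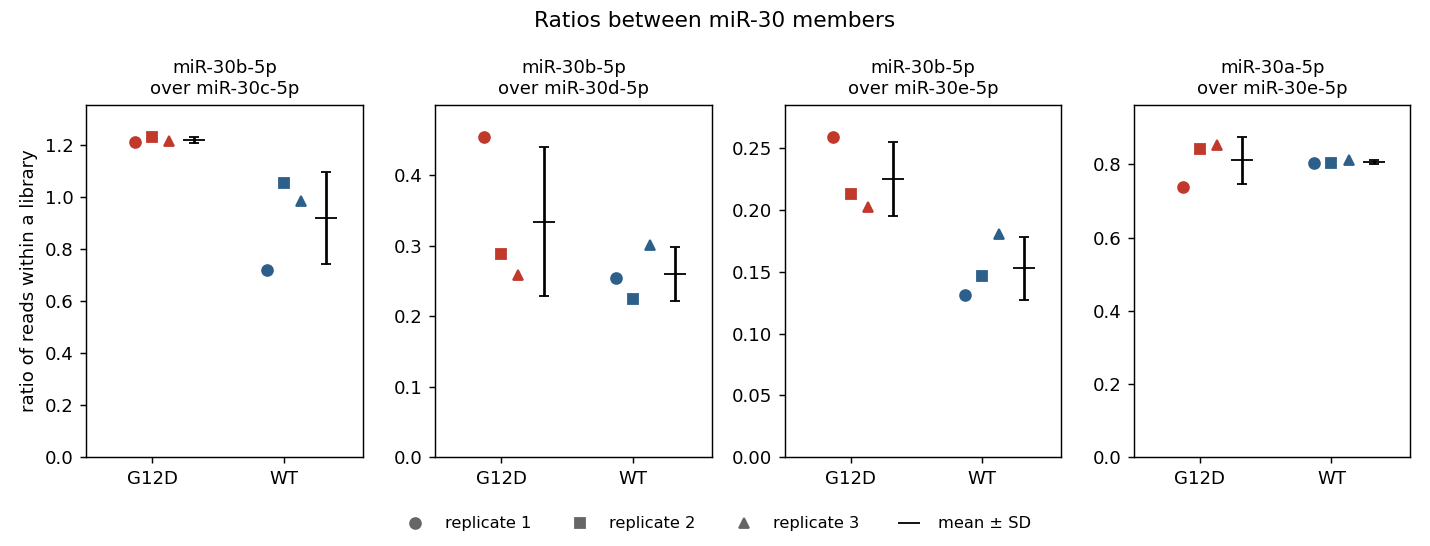
Ratio of the reads of 2 miR-30 members within a library for 4 pairs, in the 3 G12D and 3 WT libraries, with bars for mean ± SD. miR-30b-5p over miR-30c-5p lies at 1.22 in G12D and 0.919 in WT without overlap, and miR-30a-5p over miR-30e-5p at 0.811 in G12D and 0.806 in WT.

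The opposite strand of each hairpin, the 3p arm, was rarely found in Ago2. The 6 3p arms analysed here took 0.372 to 0.54% of the miR-30 reads in G12D and 0.499 to 0.725% in WT. The sequences of the 4 arms found in RefSeq are shown because they carry other seeds, again in capitals.
miR-30a-3p: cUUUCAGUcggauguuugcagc
miR-30e-3p: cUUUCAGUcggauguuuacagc
miR-30c-1-3p: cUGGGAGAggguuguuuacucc
miR-30c-2-3p: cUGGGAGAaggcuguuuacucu
miR-30a-3p and miR-30e-3p share a seed and differ by G18A. Both miR-30c arms share a second seed. miR-30d-3p was the most abundant 3p arm, at 137, 89.3 and 152 normalized reads in the G12D libraries and 69.2, 184 and 106 in the WT libraries, with overlapping groups (log2 fold change 0.15 ± 0.39 SE, limma adjusted p = 0.837). It took 1.06% ± 0.365 of its hairpin's reads in G12D and 1.34% ± 0.448 in WT (SD, n = 3 each; exact permutation p = 0.4). miR-30e-3p took 0.356% ± 0.0421 in G12D and 0.517% ± 0.225 in WT, and miR-30a-3p 0.359% ± 0.0883 in G12D and 0.355% ± 0.108 in WT (exact permutation p = 0.4 and 0.9). Neither miR-30e-3p nor miR-30a-3p passed the test of levels (limma adjusted p = 0.83 and 0.703).

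The 3p arms of miR-30b and miR-30c were near the limit of detection and did not pass the filter. miR-30c-1-3p had 1, 0 and 1 reads in the G12D libraries and 5, 4 and 7 in the WT libraries. Over the genotype that is 2 of 1159280 reads in G12D and 16 of 1439549 in WT, a ratio of 0.155 (exact 95% interval 0.0173 to 0.66, counting error only). The authors' deposited table gives miR-30c-1-3p a log2 fold change of -0.70 ± 0.46 SE and no adjusted p. miR-30c-2-3p had 2 reads over the G12D libraries and 5 over the WT libraries, a ratio of 0.497 (0.0473 to 3.03). miR-30b-3p had 3 over the G12D libraries and 8 over the WT libraries, a ratio of 0.466 (0.0796 to 1.94). These intervals, of the same kind, include 1. Together the miR-30c 3p arms took 0.0489% ± 0.0426 of the reads of both miR-30c hairpins in G12D and 0.227% ± 0.0147 in WT (SD, n = 3 each). The libraries did not overlap, and the exact permutation p was 0.1, or 0.5 adjusted over the 5 comparisons of arms.

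The miRNAs most like the family were found by correlation with the mean of the 5 members on the log2 scale over the 6 libraries, among 121 others whose mean reached 100 normalized reads. They were miR-1247-5p (Pearson r = 0.98), miR-200b-5p (0.91), miR-139-5p (0.91), miR-26a-5p (0.91) and miR-27a-3p (0.89). All points share the factors of the libraries, and the genotypes form 2 groups, so these values describe the 6 libraries only. Of the 5, miR-1247-5p, miR-26a-5p and miR-27a-3p were called higher in G12D (limma adjusted p = 7.83e-06, 0.0143 and 5.57e-05), and miR-200b-5p and miR-139-5p were not (0.491 and 0.0948). Among the members themselves, miR-30a-5p followed miR-30e-5p (r = 0.96) and miR-30d-5p (0.92) more closely than miR-30b-5p (0.54) or miR-30c-5p (0.53).

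Sites for the family in the pulldown mRNA libraries were annotated by the authors in the peaks where Ago2 sat on RNA. Of 88 peaks with a match to bases 2 to 8, 80 were tested, and 20 were higher (25.0%) and 16 lower in G12D, with a median log2 fold change of 0.26. Of all 4438 tested peaks, 48.9% were called by limma, 36.2% higher and 12.7% lower, with a median of 1.05. The split moved with the scaling, to 17 higher and 28 lower of the 80 with quantile normalization and 17 and 27 by edgeR with TMM. The split of all 4438 tested peaks moved as well. With quantile normalization 19.7% of all tested peaks were called higher and 18.5% lower, and by edgeR with TMM 24.6% and 20.2%. The pulldown libraries held 148927 to 723937 reads in G12D and 54401 to 148770 in WT. A peak in the authors' list for G12D alone, or for WT alone, was picked on the reads of that genotype. The direction of such peaks therefore cannot test a change between genotypes. Of the 80 tested peaks with a match, 27 were in both lists. In the main fit 2 of these were higher and 11 lower, with a median log2 fold change of -1.20. Of all 828 tested peaks in both lists, 13.9% were higher and 25.6% lower, with a median of -0.45.

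Among the 4 most abundant of these peaks, chosen by level after the values were seen, that of Slc36a1, a transporter of small amino acids (3′ UTR, chromosome 11, 55233779 to 55233837), had 50.2, 85.0 and 71.8 normalized reads in the G12D libraries and 431, 330.4 and 552 in the WT libraries. All G12D libraries lay far below the WT libraries (log2 fold change -2.65 ± 0.35 SE, limma adjusted p = 0.000287). That of Appl2, an endosomal adaptor protein (exon, chromosome 10, 83614204 to 83614258), had 49.1, 69.5 and 111 in the G12D libraries and 355, 145 and 414 in the WT libraries, and was lower in G12D without overlap (-1.92 ± 0.45 SE, limma adjusted p = 0.00476). The peaks of Ccdc71l, the most abundant at 707 ± 182 in G12D and 643 ± 108 in WT, and of Ipmk, an inositol phosphate kinase, at 200.4 ± 76.9 in G12D and 193 ± 106 in WT (SD, n = 3 each), overlapped between the genotypes and did not pass (limma adjusted p = 0.809 and 0.822).

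The 50 gene names listed from general knowledge as miR-30 targets include Ccn2 and Ctgf, which name the same gene. Of the listed genes, 17 had a peak of any kind. Their 47 tested peaks had 18 higher (38.3%) and 5 lower (10.6%). Only 3 of these genes, Gnai2, Socs1 and Rhob, had a peak with a miR-30 match, 4 peaks in all, each in a 3′ UTR with an 8-mer match. They are named after their values were seen, since limma called 0 of the 4, with 1 at an unadjusted p under 0.05, and edgeR with TMM called 1, that of Socs1, as lower. Quantile normalization also called Socs1 lower, whereas the same total per library, and leaving out WT replicate 1, each called 1 peak higher, the less abundant one of Gnai2.

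The higher of the peaks of Gnai2, which encodes a G protein alpha subunit (chromosome 9, 107614653 to 107614729), had 63.3, 38.8 and 50.3 normalized reads in the G12D libraries and 70.1, 37.7 and 81.2 in the WT libraries. The genotypes overlapped (log2 fold change -0.26 ± 0.40 SE, limma adjusted p = 0.594). The other Gnai2 peak (107614395 to 107614462), called only in the G12D list, had 23.99, 7.63 and 9.34 in the G12D libraries and 4.25, 2.90 and 2.58 in the WT libraries. It did not overlap between genotypes but rested on 5 reads in WT, with each WT library below the 3.87 to 8.69 normalized reads that a count of 0 allows there, and narrowly missed the threshold (1.64 ± 0.65, limma adjusted p = 0.0536). Socs1, an inhibitor of cytokine signalling (chromosome 16, 10783901 to 10783972), had 6.54, 12.6 and 13.6 in the G12D libraries and 14.9, 17.4 and 33.5 in the WT libraries (-0.92 ± 0.52, limma adjusted p = 0.163). All its G12D libraries lay below its WT libraries. The peak of Rhob, a small GTPase (chromosome 12, 8497704 to 8497787), was likewise called only in the G12D list and rested on 10 reads in WT. It had 10.9, 10.3 and 5.75 in the G12D libraries and 8.49, 0 and 7.73 in the WT libraries, with overlap (1.15 ± 0.87, limma adjusted p = 0.28).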

How the data were processed

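STAR 2.5.2b and DESeq2, with the builds mm10 and GRCm38, are named in the submitters' processing notes; how reads were counted and which tool called peaks is not stated there. The deposited tables of normalized reads hold a signal, the reads of each mature miRNA or merged peak after division by a factor of the library. Whole reads were recovered from the step between low values, and 100.0% of the values above 0 were whole within 0.01 of a read. The authors' deposited tables also give log2 fold changes with standard errors, and p-values with adjusted p-values. The deposited peak lists carry the authors' score, used here only for which peaks each list holds.

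miRNAs averaging at least 10 normalized reads, and peaks averaging at least 5, were tested for G12D against WT with limma 3.58.1 (R 4.3.3, trended variance) on log2(normalized reads + 1), a scale on which low values appear to change less than they do. Calls had a Benjamini-Hochberg adjusted p under 0.05 over all miRNAs, or all peaks, in the fit. Sums, shares and ratios were compared with exact permutation tests (scipy 1.17.1). Alternatives used edgeR 4.0.16 and DESeq2 1.42.0 on the recovered reads, other pseudocounts, filters and scalings, the replicate number as a block, and each library left out in turn. edgeR with the deposited factors was chosen after seeing the data. The members, lists and tests were chosen with earlier results of these data known. The plan was to name the 5 members, their 3p arms and the 5 most correlated miRNAs with a mean of at least 100. Of the listed targets it was to name up to 6 genes whose peak with a match passed, and none did. Gnai2, Socs1 and Rhob were named after their values were seen. So were Slc36a1, Appl2, Ccdc71l and Ipmk, whose peaks with a match were the most abundant. The 6 libraries of input controls are not used here.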

Additional observations from a re-analysis of the deposited data

How the results depend on the processing

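The call of miR-30b-5p held in 13 of 17 alternatives, and its log2 fold change ranged from 0.45 to 0.88. It ended with the same total per library (0.45, limma adjusted p = 0.157), without the variance trend (0.82), with the replicate number as a block (0.82, limma adjusted p = 0.0529) and without G12D replicate 1. The number of members called was then 0 in the first 3 of these, and 1 to 2 with a library left out: without G12D replicate 1 the member called was miR-30d-5p in place of miR-30b-5p. Replicate numbers did not pair the libraries (correlations of same-numbered deviations from -0.42 to -0.0003 over 254 miRNAs), and the block changed no call of another member. Calls over all miRNAs numbered 40 of 254 tested in the main fit and 20 of 127 tested with a mean of at least 100. They numbered 25 of 254 with the replicate block and 18 of 254 without the trend. With a library left out they numbered 21 to 49 of the 252 to 255 tested, the lowest without WT replicate 3.

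The sign turned with the same total and quantile normalization for miR-30a-5p (-0.10 and -0.059), miR-30e-5p (-0.11 and -0.21) and the summed normalized reads (differences of -174 and -1418, against 11032). With a library left out, log2 fold changes ranged from 0.12 to 0.37 for miR-30a-5p, 0.75 to 0.88 for miR-30b-5p, 0.34 to 0.67 for miR-30d-5p and 0.11 to 0.34 for miR-30e-5p. The difference in the family's percent of all reads ranged from -0.841 to 0.78 points, that in the share of miR-30c-5p in the family from -0.523 to 0.548, and that in the share of miR-30a-3p in its hairpin from -0.0437 to 0.063. The shares of miR-30a-5p, miR-30b-5p, miR-30d-5p and miR-30e-5p kept their direction without any 1 library and with the 3p arms in the total, where the libraries of the genotypes overlapped for miR-30e-5p (exact permutation p = 0.2).

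With 3 libraries the order of members cannot pass, since the smallest exact permutation p is 0.25. In G12D alone and WT alone the log2 ratios were 0.30 and 0.31 for miR-30e-5p over miR-30a-5p, 0.23 and 0.46 for miR-30a-5p over miR-30d-5p, and 1.63 and 1.95 for miR-30d-5p over miR-30b-5p. That of miR-30b-5p over miR-30c-5p was 0.29 in G12D and -0.14 in WT. Of the peaks with a miR-30 match, 36 of 80 tested were called in the main fit (45.0%, beside 48.9% of all tested peaks). Fewer were tested in the following settings. With a mean of at least 20, 16 of 27 were called (59.3%, beside 59.4% of all tested peaks). Of these 27, 4 were higher (14.8%) and 12 lower (44.4%), beside 32.3% and 27.2% of all tested peaks. In a fit of the peaks in both lists alone, 13 of 27 were called (48.1%, beside 37.7% of all tested peaks). There 2 were higher (7.41%) and 11 lower (40.7%), beside 12.7% and 25.0% of all tested peaks. The cause of the other differences was not tested. Depth limits the 3p arms of miR-30b and miR-30c, where 0 miR-30c-1-3p reads in G12D replicate 2 allow up to 3.997 normalized reads. It also limits low peaks in the WT pulldown libraries, where 0 reads allow up to 3.87 to 8.69.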
